A study of Mus musculus with 12 samples.

Results

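Cytosolic ribosomal protein genes were followed by RNA-seq in a mouse hind limb muscle of fast fibers, the extensor digitorum longus (EDL). They were chosen by name, as the genes of the expression table called Rpl or Rps and followed by a digit, p or a, without pseudogenes named -ps and without the Rps6k kinases. A mean of at least 0.5 FPKM (fragments per kilobase of transcript, scaled by depth) over the 12 libraries was also required. This gave 87 genes of the 17752 in the table, 51 named Rpl and 36 named Rps, on 19 chromosomes. A further 2 genes with such names, Rpl39l at 0.329 FPKM and Rps3a2 at 0.315 FPKM, stood below the minimum, and the lowest gene above it was Rps3a3 at 2.22 FPKM. GENCODE annotates 84 of the 87 as protein coding and Rpl37rt, Rps4l and Rps3a3 as processed pseudogenes.

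The 4 groups held 3 libraries each, all from male mice that were put on a voluntary running wheel (trained) or kept without one (sedentary) from 8 weeks of age. In the knockout line, called strNrip1-/- here, floxed Nrip1 alleles are deleted by Cre recombinase under the muscle creatine kinase promoter, which is active in heart and skeletal muscle. Nrip1 fl/fl mice came from C57BL/6J and the Cre line from C57BL/6JN, and Cre-negative littermates, called WT here, were the controls of both the sedentary and the trained arm. Nrip1 encodes RIP140, a corepressor of nuclear receptors. The comparisons ask whether ribosomal protein mRNAs differ between the genotypes, with and without running, and between the running states.

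Nrip1 itself stood at 14.9 to 20.7 FPKM in the 6 libraries labelled strNrip1-/- and at 2.53 to 4.76 FPKM in the 6 labelled WT. These whole-gene values were higher under the knockout label and do not by themselves decide the genotype, so each genotype is given as labelled. The study's methods place the start and stop codons of Nrip1 in its last exon and the Cre target sites around that exon, and a value for the whole gene does not separate it from the exons before it. Among the fast fiber markers Actn3 was lower in the libraries labelled strNrip1-/-, with log2 differences of −0.90 in sedentary and −0.75 in trained muscle (limma adjusted p-values of 2.52e-04 and 8.17e-04). The 6 markers of fast fibers summed to between 55058 and 82679 FPKM and the 5 of slow fibers to between 42.2 and 439.7 FPKM, so fast fibers prevailed in every library. Spacing of low FPKM values put the scale that FPKM was divided by at 20.2 to 29.3 M fragments, which need not be the fragments sequenced. In bulk muscle, fewer cells of a type and less RNA per cell cannot be told apart.

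A ribosome is built of a small subunit, whose proteins carry the prefix Rps, and a large subunit, whose proteins carry Rpl, around ribosomal RNAs. Each protein is needed in about equal number, and free ribosomal proteins are degraded. Their mRNAs are short and abundant, and most begin with a C and an unbroken run of pyrimidines, the 5′ terminal oligopyrimidine (TOP) motif, through which the kinase mTORC1 governs how strongly they are translated. That control acts on translation, which RNA-seq of total RNA does not measure. In muscle, ribosome content is known to follow growth and loading.

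The TOP motif was looked for in the promoters of RefSeq (GRCm38.p6), which held 77 promoters of 65 of the 87 genes. A C followed by at least 4 further C or T on the gene's strand, beginning within 5 bases of the annotated start, was present in 32 of the 77 promoters (41.6%), against 6027 of all 32851 promoters (18.3%). The windows shown are 30 bases long, the last 15 of them transcribed, and are those of genes named in the results. Capitals mark the run. Rps6 encodes the small-subunit protein that the mTORC1 effector S6 kinase phosphorylates, and its window lies on the minus strand at chr4:86857353-86857382. The stalk protein gene Rplp2 lies at chr7:141447636-141447665, Rpl38 at chr11:114668565-114668594, Rpl28 at chr7:4792950-4792979 and Rpl22l1 at chr3:28805493-28805522, all on the plus strand.
Rps6: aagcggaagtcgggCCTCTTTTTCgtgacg
Rplp2: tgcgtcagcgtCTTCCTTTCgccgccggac
Rpl38: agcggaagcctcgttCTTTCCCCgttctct
Rpl28: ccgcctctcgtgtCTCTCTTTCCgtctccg
Rpl22l1: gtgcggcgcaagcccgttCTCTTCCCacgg
The run lay in a promoter of 30 of the 65 genes, so its absence was common. It was not found at the start of Rpl3l (plus strand, chr17:24727811-24727840), the paralog of Rpl3 restricted to striated muscle. Nor was it found for Rps19bp1 (minus strand, chr15:80264292-80264321), which shares the prefix but encodes a binding partner of Rps19 and not a ribosomal protein. A match describes these letters only, since annotated starts can be off by some bases.
Rpl3l: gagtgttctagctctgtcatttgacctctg
Rps19bp1: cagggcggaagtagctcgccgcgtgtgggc

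Ribosomal protein genes were among the abundant transcripts of EDL. Their mean FPKM had a median of 299.8, against 5.88 over all 12744 genes that passed the same minimum. There were 76 genes between 100 and 1000 FPKM, 10 below and 1 above. Together the 87 genes made up 4.45% to 5.64% of the FPKM outside the mitochondrial genome in single libraries. Sedentary libraries labelled WT had a mean share of 4.69% ± 0.172 and those labelled strNrip1-/- one of 5.12% ± 0.452 (SD, n = 3 each). Trained libraries had 4.59% ± 0.201 and 4.87% ± 0.128 in the same order. For this share the libraries of both labelled genotypes overlapped in each state. Of all FPKM, sedentary libraries held 2.63%, 2.71% and 2.58% under the WT label and 2.34%, 2.75% and 2.26% under the strNrip1-/- label. Trained libraries held 2.37%, 2.57% and 2.50% and 2.63%, 2.68% and 2.73% in the same order, without overlap. The order in sedentary muscle and the overlap in trained muscle thus depended on whether the mitochondrial genome was counted. No test was run on these shares.

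**Figure D1:**
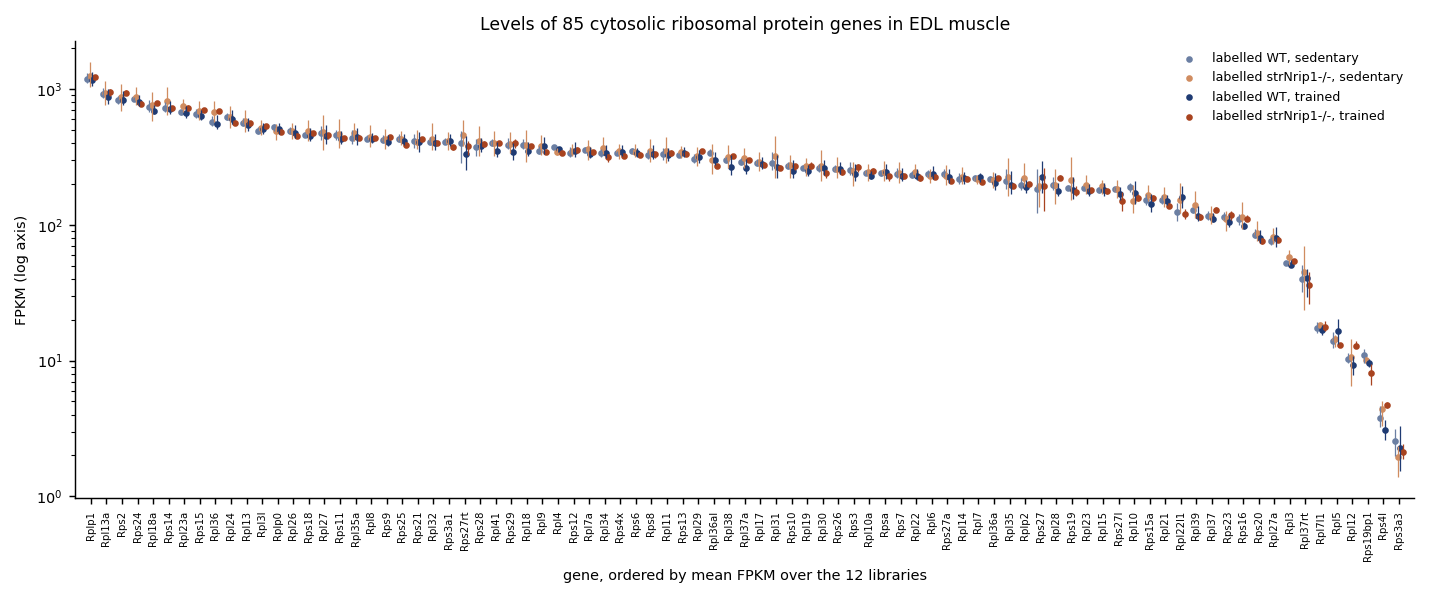
Levels of 85 of the 87 genes, ordered by mean FPKM, on a log axis. Points are the means of 3 libraries in each of the 4 groups and lines run from the lowest to the highest library. Levels fall slowly from Rplp1 (mean 1205 FPKM) to about 100 FPKM and then drop over the last 10 genes.

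Among the highest genes were Rplp1, Rpl13a, Rps2 and Rps24. Rplp1, an acidic protein of the stalk that recruits elongation factors, led with 1205 FPKM. Its partner Rplp2 stood at 201.7 FPKM, and Rplp0, the base of the stalk, at 498.6 FPKM. The 5 lowest were Rps3a3 at 2.22, Rps4l at 3.98, Rps19bp1 at 9.68, Rpl12 at 10.8 and Rpl5 at 14.4 FPKM. Of these, Rpl12 and Rpl5 encode core proteins of the large subunit, and their low values are taken up with their copies below.

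The genes moved together from library to library. The deviation of a gene in a library was taken as its log2(FPKM + 0.5) minus its mean over the 12 libraries. In labelled WT sedentary libraries 1, 2 and 3, the median deviation of the 87 genes was −0.05, 0.12 and −0.04. In the sedentary strNrip1-/- group it was −0.01, 0.32 and −0.18. Trained libraries had −0.13, 0.16 and −0.14 under the WT label and −0.01, −0.05 and 0.02 under the strNrip1-/- label. Replicate 2 was thus the high library in 3 of the 4 groups, and 72 of the 87 genes had their highest value of all in labelled strNrip1-/- sedentary replicate 2. The libraries spanned 0.50 on the log2 scale (1.41-fold), whereas the 4 group means spanned 0.08, and the SD between libraries of a group was 0.16.

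**Figure D2:**
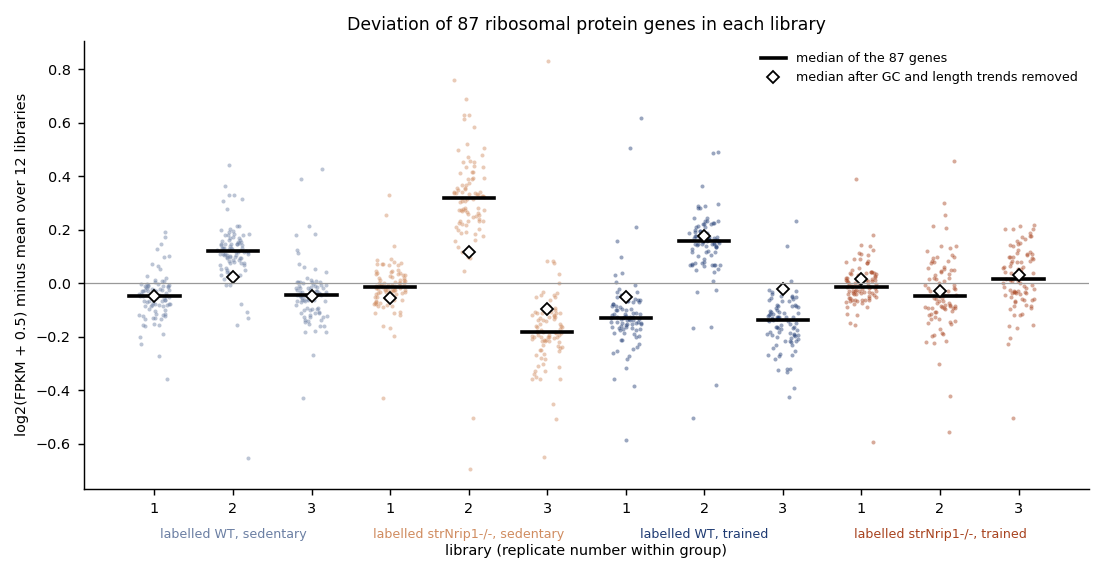
Deviation of each of the 87 genes (points) from its own mean over the 12 libraries, on the log2 scale, for each library. Bars are the medians and diamonds the medians after trends with GC content and transcript length were removed. Replicate 2 of both sedentary groups and of the trained WT group lies above 0, with a median of 0.32 in labelled strNrip1-/- sedentary replicate 2.

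This shared movement was described by the correlation of deviations from the group means. Over the 12 libraries, the median Pearson r of the 3741 pairs of ribosomal protein genes was 0.90, and 92.8% of the pairs were above 0. Over all 81198396 pairs of genes tested, the median was −0.001. The pairs share the same 12 libraries, their depth and their scaling. Without labelled strNrip1-/- sedentary replicate 2 the median r was 0.83, and after removal of GC and length trends it was 0.71. In all, 77 of the 87 genes followed the median of the others with r above 0.8, while Rps3a3, Rpl37rt and Rps27 lay below 0.

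Transcript properties moved with these library levels. Transcripts of the 87 genes had a median length of 775 nt, against 2683 nt for all genes tested, and a GC content of 51.8% against 50.6%. In labelled strNrip1-/- sedentary replicate 2, a trend fitted on the other genes put genes of this length and GC content 0.21 above their mean, and the median of the 87 genes fell from 0.32 to 0.12 with the trend removed. The mitochondrial ribosomal protein genes (78 genes) had a median deviation of 0.33 in that library. In labelled WT trained replicate 2, in contrast, the median was 0.18 with the trend removed. Summed tendon markers were at 445.5 FPKM in labelled strNrip1-/- sedentary replicate 2, against 231.0 to 348.5 FPKM elsewhere, and summed blood markers at 1055 FPKM, against 418.5 to 1036 FPKM. The part of these cells and of transcript properties in the library levels was not tested.

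No ribosomal protein gene was called between the labelled genotypes. Differences were taken from limma fitted to log2(FPKM + 0.5) of all 12744 genes, and a gene was called at a Benjamini-Hochberg adjusted p-value under 0.05 and a fold change above 1.2. In sedentary muscle 0 of the 87 genes were called, with a background of 3.51% of all genes tested, and in trained muscle 0 of 87, with a background of 5.98%. An unadjusted limma p-value under 0.05 was reached by 0 genes in sedentary muscle (background 16.3%) and by 2 in trained muscle (background 21.1%). The median log2 difference, labelled strNrip1-/- minus labelled WT, was 0.03 in sedentary muscle, with 60 of 87 genes above 0, and 0.02 in trained muscle, with 48 above 0. Over all genes tested these medians were −0.00102 and 0.00661, with 49.8% and 51.0% of the genes above 0.

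The 95% interval of a gene's difference had a median half-width of 0.28 on the log2 scale. It lay inside 1.2-fold in both directions for 11 of the 87 genes in sedentary and 6 in trained muscle, inside 1.5-fold for 79 and 77, and inside 2-fold for 87 and 87. Changes of 1.2-fold were therefore not excluded for most genes, while a 2-fold change lay outside the interval of all 87 in both states. Both subunits gave similar medians: 0.04 for 50 large-subunit and 0.03 for 35 small-subunit genes in sedentary muscle, and 0.01 and 0.02 in trained muscle.

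**Figure D3:**
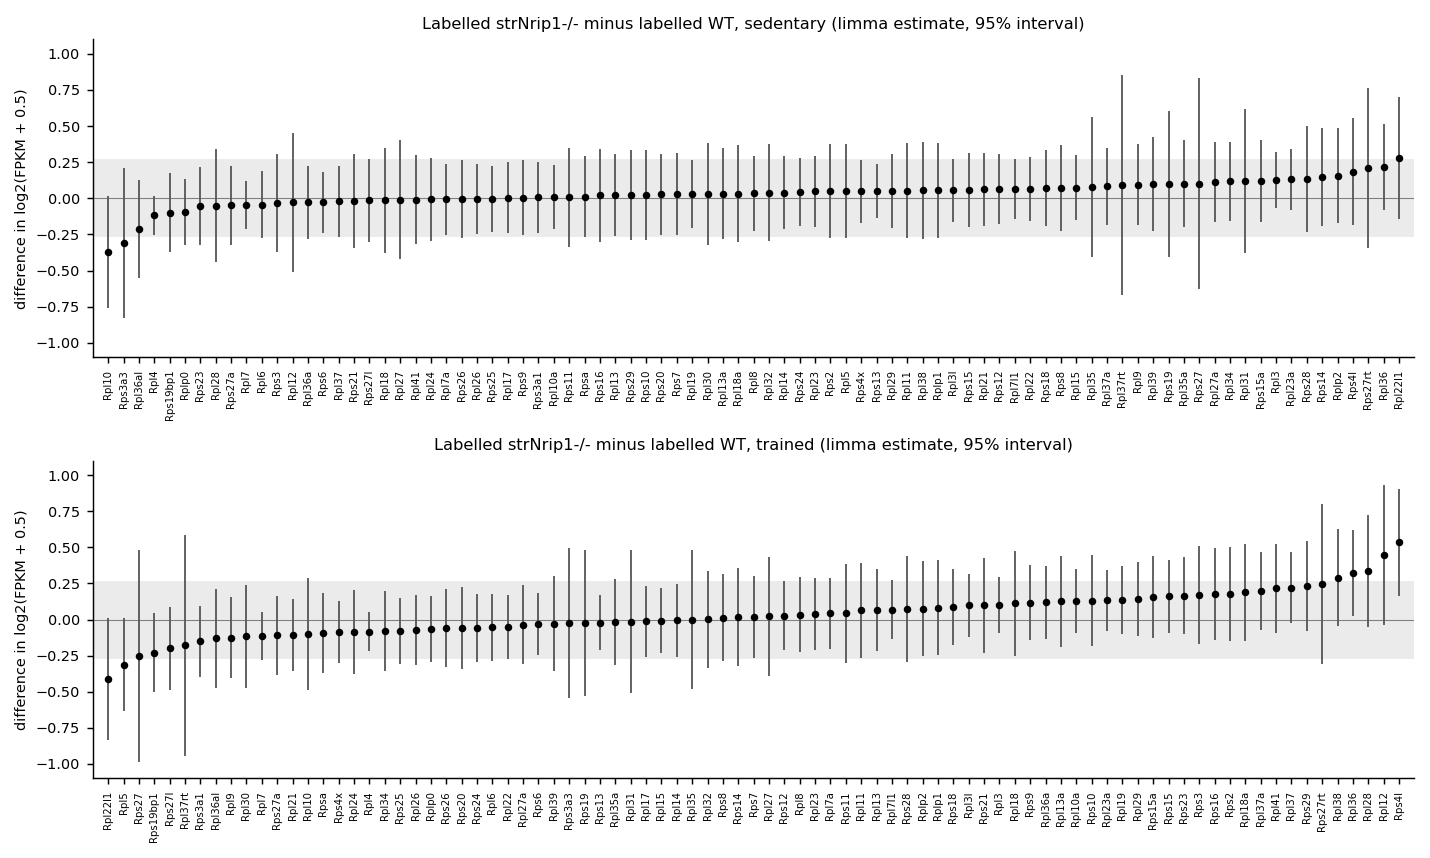
Differences in log2(FPKM + 0.5) between labelled strNrip1-/- and labelled WT libraries for 85 of the 87 genes, in sedentary (top) and trained (bottom) muscle, ordered by size. Points are limma estimates, lines their 95% intervals and the gray band 1.2-fold in both directions. In trained muscle the intervals of Rps4l and Rpl36 lie above 0, and every other interval in both panels includes 0.

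Rplp0, also known as 36B4 and used by the study as the reference gene of its quantitative PCR, is of practical interest. Sedentary libraries had 493, 552 and 518 FPKM under the WT label and 494, 554 and 422 FPKM under the strNrip1-/- label. Trained libraries had 476, 566 and 470 FPKM and 483, 464 and 490 FPKM in the same order. The groups overlapped in each comparison. The log2 difference between labelled genotypes was −0.10 (95% interval −0.32 to 0.13) in sedentary and −0.07 (−0.30 to 0.16) in trained muscle, with limma adjusted p-values of 0.748 and 0.777. Rps6 stood at 338, 370 and 336 FPKM in labelled WT sedentary and 320, 397 and 313 FPKM in labelled strNrip1-/- sedentary libraries, with a log2 difference of −0.03 (−0.24 to 0.19). Further genes with known roles had log2 differences near 0 in sedentary muscle: 0.01 for the laminin receptor precursor gene Rpsa, 0.05 for Rpl11, whose protein restrains MDM2 under ribosomal stress, −0.05 for the ubiquitin fusion gene Rps27a, and 0.10 for Rps19, mutated in Diamond-Blackfan anemia. Rps14 differed by 0.15 (−0.19 to 0.49) and Rpl38 by 0.05 (−0.28 to 0.39). In trained muscle these 6 genes lay between −0.11 (Rps27a) and 0.29 (Rpl38, −0.04 to 0.62).

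In sedentary muscle the lowest estimate was that of Rpl10, a late-joining protein near the catalytic center (chromosome X, 74270812 to 74273135, GRCm38). Its FPKM was 176, 203 and 186 in labelled WT and 122, 195 and 129 in labelled strNrip1-/- libraries, so that 1 library of the second group reached the level of the first. The log2 difference was −0.37 (SE 0.177, limma adjusted p-value 0.335). Rpl4, a protein of the exit tunnel, was the only gene whose sedentary groups did not overlap, at 370, 387 and 367 FPKM against 348, 365 and 324 FPKM, and 20.7% of all genes tested also did not overlap. Its log2 difference was −0.12 (95% interval −0.25 to 0.02). The remaining large estimates were −0.31 for Rps3a3 and −0.21 for Rpl36al, and 0.28 for Rpl22l1, 0.22 for Rpl36 and 0.21 for Rps27rt, which was 0.14 (adjusted 0.706) for the sum of Rps27rt and its near-identical partner Rps27.

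In trained muscle 9 of the 87 genes had groups that did not overlap, 7 higher and 2 lower in labelled strNrip1-/- libraries, with a background of 27.3% of all genes tested. Those higher included Rpl12, Rpl28, Rpl36, Rpl37, Rps16 and Rps4l, and those lower were Rpl22l1 and Rpl4. When the FPKM of a near-identical copy or partner gene, described below, was added to Rpl12, Rpl28, Rpl37 and Rps16, the trained groups of these 4 overlapped, and 5 of the 9 remained apart. Rps4l, a processed copy of Rps4x on chromosome 6 (148354656 to 148355598), was at 3.67, 2.61 and 3.02 FPKM in labelled WT and at 4.49, 4.93 and 4.63 FPKM in labelled strNrip1-/- libraries. It gave the largest estimate, a log2 difference of 0.53 (SE 0.169, limma unadjusted p-value 0.00884, adjusted 0.0911). Without labelled strNrip1-/- sedentary replicate 3, which enters only through the shared spread, the adjusted p-value was 0.0493. Rpl36, a small protein of the large subunit, was at 510, 646 and 512 FPKM against 680, 711 and 684 FPKM, a log2 difference of 0.32 (SE 0.135, limma adjusted p-value 0.198). Rpl36 passed the call only when libraries were rescaled to a common sum, with limma adjusted p-values of 0.0134 for all genes and 0.0143 for genes outside the mitochondrial genome, or without the 4 libraries numbered 2 (0.0241).

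The largest negative estimates in trained muscle belonged to Rpl22l1 (−0.41), Rpl5 (−0.31) and Rps27 (−0.25), and the largest positive ones after Rps4l to Rpl12 (0.45) and Rpl28 (0.34). Of these, the estimates of Rpl12, Rpl5, Rpl28 and Rps27 moved toward or past 0 once near-identical sequences were counted with the gene. Rpl12 and Rpl5 are taken up with their copies below. Rpl28 with Rpl28-ps1 stood at 230, 281 and 206 FPKM in labelled WT and at 281, 245 and 251 FPKM in labelled strNrip1-/- trained libraries, which overlapped, with a log2 difference of 0.12 (95% interval −0.23 to 0.48, limma adjusted p-value 0.734). The sum of Rps27 and Rps27rt differed by 0.05 (−0.25 to 0.35, adjusted 0.878).

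Rpl22l1, a paralog of Rpl22 that can take its place in the ribosome and whose mRNA is regulated by Rpl22, was at 158, 192 and 133 FPKM in labelled WT and at 130, 111 and 118 FPKM in labelled strNrip1-/- trained libraries. In sedentary libraries it was at 106, 144 and 120 FPKM and at 122, 205 and 131 FPKM. The higher group thus differed between the states, with overlap in sedentary muscle. The log2 interaction was −0.69 (95% interval −1.29 to −0.09), the largest of the 87, with a limma unadjusted p-value of 0.0273 and an adjusted one of 0.619. Of the 87 genes, 0 were called for the interaction, as were 0% of all genes tested, and 1 reached an unadjusted limma p-value under 0.05, Rpl22l1 (background 7.76%).

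No ribosomal protein gene passed the threshold with voluntary running. In labelled WT muscle 0 of 87 genes were called between trained and sedentary libraries, and in labelled strNrip1-/- muscle also 0, with a background of 0% in both. Unadjusted limma p-values under 0.05 numbered 0 and 2, with backgrounds of 8.33% and 12.1%. The median log2 difference, trained minus sedentary, was −0.05 with 20 of 87 genes above 0 in labelled WT, and −0.04 with 25 above 0 in labelled strNrip1-/- libraries. Over all genes tested the medians were 0.00172 and 0.00904, with 50.4% and 51.9% of the genes above 0. Signs depended on the libraries: the median in labelled WT ranged from −0.14 without trained replicate 2 to 0.01 without sedentary replicate 2, and that in labelled strNrip1-/- from −0.15 without sedentary replicate 3 to 0.08 without sedentary replicate 2. With GC and length trends removed the medians were 0.06 and 0.02. Groups did not overlap for 0 of the 87 genes in labelled WT (background 14.3%) and for 1 in labelled strNrip1-/- muscle (background 16.9%). The 95% interval lay inside 1.5-fold for 78 genes in labelled WT and 74 in labelled strNrip1-/- muscle.

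With training in labelled strNrip1-/- muscle, 2 genes reached an unadjusted p-value under 0.05, both lower. Rps19bp1 was at 9.89, 10.3 and 10.2 FPKM in sedentary and 9.47, 8.31 and 6.62 FPKM in trained libraries, which did not overlap. Its log2 difference was −0.31 (95% interval −0.59 to −0.04, limma adjusted p-value 0.350). Rps27l, a paralog of Rps27 that is a known p53 target, was at 178, 212 and 158 FPKM in sedentary and at 174, 126 and 145 FPKM in trained libraries, which did overlap, with a log2 difference of −0.30 (−0.59 to −0.01, limma adjusted p-value 0.394). The other largest estimates were −0.31 for Rpl22l1, and 0.34 for Rpl12, 0.23 for Rpl28 and 0.17 for Rpl37. With near-identical sequences added the 3 positive values became −0.17 for Rpl12 (95% interval −0.50 to 0.16), −0.07 for Rpl28 (−0.42 to 0.29) and 0.04 for Rpl37 with Rpl37rt (−0.18 to 0.25). In labelled WT muscle the largest estimates were −0.28 for Rps27rt, −0.24 for Rps4l and −0.20 for Rpl41, and 0.38 for Rpl22l1, 0.32 for Rps27 and 0.23 for Rpl5. Rps27 and Rps27rt thus stood at opposite ends, and their sum was at 596, 612 and 540 FPKM in sedentary and 547, 621 and 494 FPKM in trained libraries. These overlapped, with a log2 difference of −0.08 (−0.38 to 0.22, limma adjusted p-value 0.925). Rpl5 with its copy differed by 0.02 (−0.22 to 0.26).

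The level of a ribosomal protein paralog relative to its parent differed widely between the pairs. Rpl3l was 8.05-fold to 10.3-fold above Rpl3 in every library, at 492.5 ± 26.9 FPKM in the WT and 514 ± 66.1 FPKM in the strNrip1-/- sedentary group and at 503 ± 53.8 and 537 ± 9.41 FPKM in the trained groups (SD, n = 3 each). Rpl3, which encodes the widely expressed form, ran from 48.5 to 65.0 FPKM over the 12 libraries. Rpl22l1 stood at 0.46-fold to 0.75-fold of Rpl22 and Rpl36al at 1.18-fold to 1.60-fold of Rpl36a. Rps4l was at most 0.0155-fold of Rps4x, an X-linked gene. Rps27l over Rps27 ran from 0.48-fold to 1.57-fold, and Rps27 itself ran from 121 to 293 FPKM. The sum of Rps27 and its near-identical partner Rps27rt ran from 494 to 809 FPKM. Rps27l, at 126 to 212 FPKM, stood below this sum in all 12 libraries. Rpl7l1, which despite its name takes part in building the large subunit, was at 17.6 FPKM, and Rpl7 at 217.2 FPKM.

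**Figure D4:**
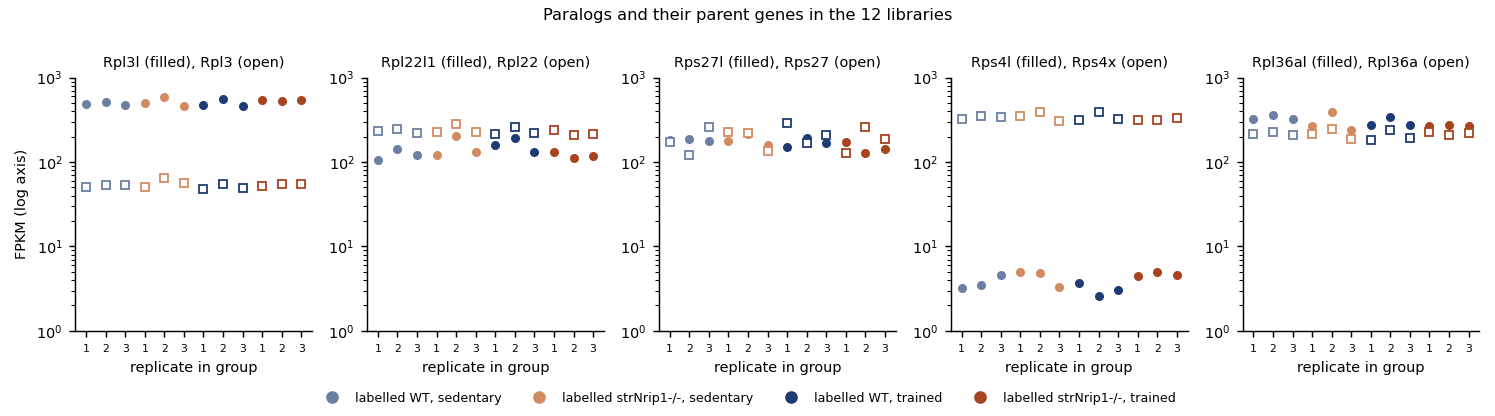
FPKM of 5 paralogs (filled) and their parent genes (open) in the 12 libraries, on log axes from 1 to 1000. Rpl3l lies above Rpl3 in all 12 libraries and Rps4l below Rps4x in all 12, while Rps27l and Rps27 cross. Rps27rt is not added to Rps27.

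Rpl39l stood below the minimum and Rpl10l was not analysed here, so neither was compared with its parent. Whether the balance within the 5 pairs followed genotype or training was tested on the log2 ratio with an exact two-sided permutation test, stratified by the other factor, in which the smallest possible p-value was 0.005. None of the 10 tests passed after Benjamini-Hochberg adjustment over the 10. The ratio of Rpl36al to Rpl36a was lower in labelled strNrip1-/- libraries by a mean log2 difference of −0.22 (exact permutation p-value 0.02, adjusted 0.167), and that of Rps4l to Rps4x was higher by 0.38 (exact p-value 0.035, adjusted 0.167). The ratio of Rpl3l to Rpl3 differed by −0.04 with labelled genotype (exact p-value 0.51) and by 0.11 with training (exact p-value 0.05, adjusted 0.167). For Rpl22l1 over Rpl22 the differences were −0.07 and 0.12, with exact p-values of 0.62 and 0.425. The ratio of Rps27l was taken to Rps27 alone, without Rps27rt.

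Many ribosomal protein genes have near-identical copies elsewhere in the genome, and reads shared with a copy cannot be assigned for certain. Copies were sought among the transcripts of the other genes of the table, at 98% identity or more over 80% of the copy and at least 200 nt. There were 87 such copies of 47 of the genes, 83 of them annotated as pseudogenes, and they held 6.93% to 8.496% as much FPKM as the genes themselves. Only 11 copies averaged 10 FPKM or more, but 5 of these stood above their gene. Gm10275, a transcribed processed pseudogene on chromosome 10 (29698746 to 29699380, GRCm38), matched Rpl12 over 495 nt without a mismatch and averaged 419.8 FPKM, 39.0-fold above Rpl12 itself. Gm15500 (chromosome 7, 114705217 to 114706235) matched Rpl5 over 894 nt and averaged 296.4 FPKM, 20.6-fold above Rpl5.

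The other 3 were Gm7536 at 314.7 FPKM beside Rpl27a at 78.7 FPKM, Rps23-ps1 at 335.4 FPKM beside Rps23 at 111.9 FPKM, and Rpl10-ps3 at 344.8 FPKM beside Rpl10 at 166.3 FPKM. With the copy added, Rpl12 came to between 366.8 and 573.6 FPKM and Rpl5 to between 281.2 and 375.7 FPKM. The SD within groups on the log2 scale went from 0.31 to 0.20 for Rpl12 and from 0.20 to 0.14 for Rpl5. The r of their library deviations with the median of the 87 genes (12 libraries, group means removed) went from 0.67 to 0.98 and from 0.58 to 0.96. Rpl12 made up at most 3.41% and Rpl5 at most 5.53% of its sum, so these values are mainly those of the copy. Other genes with a copy of at least 10 FPKM went both ways. With the copy added the SD fell for Rpl10, Rpl27a, Rpl31, Rpl28 and Rps20. It rose for Rps23, Rpl15 (0.13 to 0.18), Rps16 (0.20 to 0.23) and Rpl36a. The r fell for Rpl28 (0.96 to 0.93), Rps20 (0.90 to 0.85) and Rpl36a (0.93 to 0.81) and rose for the others. The trained difference of Rpl12 went from 0.45 to −0.16 (95% interval −0.49 to 0.17) and that of Rpl5 from −0.31 to −0.09 (−0.33 to 0.15). Both had been among the 3 largest estimates of their direction in trained muscle. Copies below their gene also bore on the estimates: Rpl28-ps1 averaged 62.6 FPKM and matched Rpl28 over 414 nt without a mismatch.

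**Figure D5:**
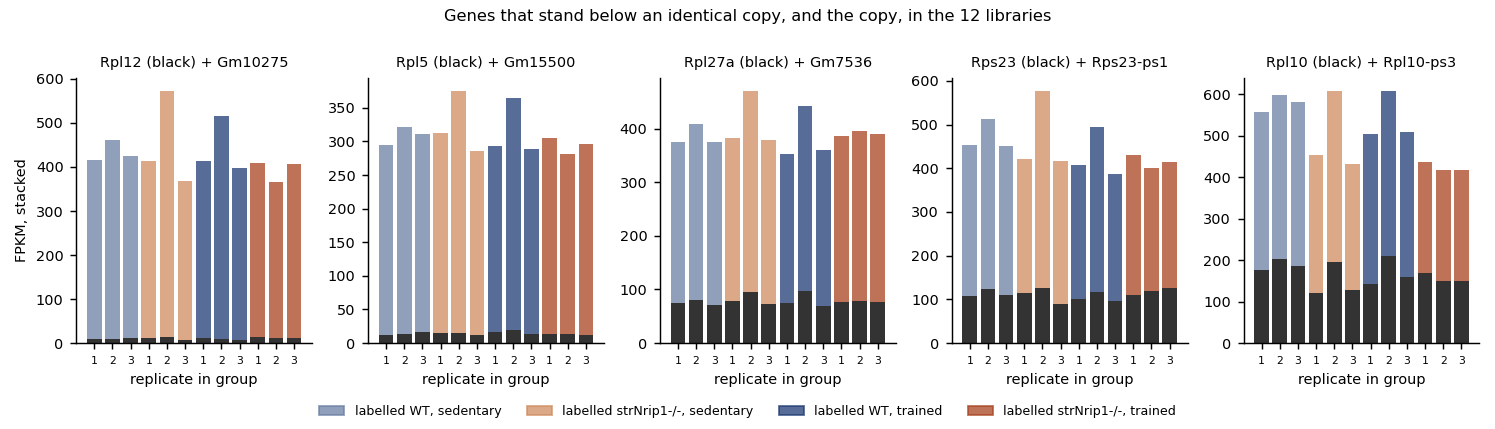
Stacked FPKM of 5 genes (black) and the identical copy that exceeds each (colored by group) in the 12 libraries. The black part is at most 3.41% of the stack for Rpl12, and the Rpl10 stack is lower in all 3 labelled strNrip1-/- trained libraries than in all 3 labelled WT trained libraries.

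Among 44 copies with a mean of at least 0.5 FPKM, 1 was called in trained muscle between labelled genotypes, beside a background of 5.98%. No copy was called in the other comparisons. The called copy was Rpl10-ps3, which was chosen after its values were seen. It lies on chromosome 9 (50344201 to 50344968) and matches Rpl10 over 740 nt without a mismatch. GENCODE annotates it as protein coding. Sedentary libraries had 383, 396 and 395 FPKM under the WT label and 333, 414 and 304 FPKM under the strNrip1-/- label. Trained libraries had 364, 398 and 350 FPKM and 268, 266 and 266 FPKM in the same order. The trained groups did not overlap, as was so for 27.3% of all genes tested. The log2 difference was −0.47 (SE 0.099, limma adjusted p-value 0.0188). The call held under 19 of 23 alternative settings, over which adjusted p-values ran from 1.09e-04 to 0.0714, and was lost without labelled WT trained replicate 1 (0.0555) or 2 (0.0521) and without labelled strNrip1-/- trained replicate 2 (0.0681) or 3 (0.0714). Adding Rpl10 to Rpl10-ps3 gave 505.6, 609.6 and 509.7 FPKM in trained libraries under the WT label and 437.9, 416.8 and 417.4 FPKM under the strNrip1-/- label. For the sum the log2 difference was −0.35 (95% interval −0.61 to −0.09, limma adjusted p-value 0.113) in trained and −0.23 (−0.49 to 0.03, adjusted 0.375) in sedentary muscle.

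Some of the 87 genes are near-identical to each other. Rps27 and the intronless Rps27rt match over 341 nt without a mismatch, and their levels went opposite ways between libraries. In labelled WT sedentary libraries Rps27 was at 174, 121 and 257 FPKM and Rps27rt at 422, 490 and 283 FPKM. The within-group SD on the log2 scale was 0.48 for Rps27, 0.36 for Rps27rt and 0.18 for their sum. For Rpl37 and Rpl37rt it was 0.15 and 0.50, and 0.12 for the sum. Deviations of the paired genes had an r of −0.59 and −0.49 over the 12 libraries.

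Fau, whose product carries a small-subunit protein fused to a ubiquitin-like one, and Rack1, a signaling scaffold on the small subunit, also belong to the cytosolic ribosome under other names. Neither was called by limma nor reached an unadjusted p-value under 0.05 in any comparison. Rack1 stood at 162 to 194 FPKM over the 12 libraries, and its log2 difference between labelled genotypes was −0.07 (95% interval −0.23 to 0.08) in sedentary and 0.07 (−0.08 to 0.23) in trained muscle. Fau ran from 224 to 384 FPKM, with differences of 0.04 (−0.33 to 0.42) and 0.17 (−0.21 to 0.55).

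The machinery that makes and uses ribosomes was compared between the labelled genotypes by the same limma fit, with backgrounds of 3.51% called without and 5.98% with running, and of 16.3% and 21.1% at an unadjusted p-value under 0.05. Of 45 genes of ribosome biogenesis, 1 was called higher and 0 lower in sedentary muscle, and 2 higher and 0 lower in trained muscle. Polr1a, the largest subunit of RNA polymerase I, which transcribes ribosomal RNA, was at 8.43, 7.06 and 7.73 FPKM in labelled WT and 16.4, 14.5 and 18.3 FPKM in labelled strNrip1-/- sedentary libraries. The log2 difference was 1.03 (SE 0.125) without and 0.96 (SE 0.125) with running, at limma adjusted p-values of 0.00124 and 0.00166, and both calls held under all 24 alternative settings. Imp4, a factor of small-subunit processing, was called in trained muscle, at 3.76, 2.38 and 3.32 FPKM against 5.78, 5.73 and 5.87 FPKM (log2 difference 0.80, limma adjusted p-value 0.0214), and kept its call under 17 of 23 settings. It was not called in sedentary muscle, and no interaction was called in this list.

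For 26 tested genes of translation initiation and elongation the median log2 difference was −0.12 in sedentary muscle, with 5 above 0. In trained muscle it was −0.01, with 12 above 0. Unadjusted limma p-values under 0.05 numbered 9 and 5, beside backgrounds of 16.3% and 21.1%. Among these genes Eif3i, a subunit of initiation factor eIF3, was called higher in both states. It was at 85.7, 88.9 and 89.1 FPKM in labelled WT and 145, 208 and 147 FPKM in labelled strNrip1-/- sedentary libraries, and at 82.3, 84.1 and 83.5 FPKM against 151, 140 and 141 FPKM in trained libraries. The log2 differences were 0.90 and 0.78, with limma adjusted p-values of 0.00165 and 0.00295. In trained muscle Eif2s2, a subunit of eIF2, fell by 0.26, a call lost under 10 of 24 settings. Maf1, a repressor of RNA polymerase III, was the 1 called of 23 genes of mTORC1 and growth signals, higher by 0.44 in trained muscle (limma adjusted p-value 0.00619), at 68.5, 75.2 and 75.2 FPKM in labelled WT and 93.9, 98.1 and 105 FPKM in labelled strNrip1-/- libraries. In sedentary muscle it was at 82.7, 96.0 and 88.4 FPKM against 80.5, 80.4 and 76.7 FPKM, lower and without overlap (background 20.7%). This log2 difference of −0.17 (95% interval −0.33 to −0.00605) was not called (limma adjusted p-value 0.284). The interaction of Maf1, 0.60 (0.38 to 0.83), had a limma adjusted p-value of 0.335. Of 21 translation factors and other genes with TOP mRNAs, which include Rack1, 0 were called by limma between labelled genotypes, with unadjusted p-values under 0.05 for 1 gene in sedentary and 3 in trained muscle. Of 17 chaperones and assembly factors, which include Rps19bp1 and Rpl7l1, 0 were called, with 1 and 4 genes under 0.05 unadjusted. With training no gene of these lists was called in either labelled genotype, like all genes tested.

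Mitochondrial ribosomal proteins, which are nuclear-encoded and make the separate ribosome of that organelle, were set beside the cytosolic ones. Over 78 of their genes the median log2 difference between labelled genotypes was 0.17 in sedentary and 0.19 in trained muscle. Above 0 were 66 and 68 genes, against 60 and 48 of the 87 cytosolic genes and 49.8% and 51.0% of all genes tested. Unadjusted limma p-values under 0.05 numbered 20 and 23 of the 78, beside backgrounds of 16.3% and 21.1%. Those called were Mrps2 and Mrpl10 in sedentary and Mrps9 and Mrps27 in trained muscle, all higher, which is 2 of 78 in each state beside the backgrounds of 3.51% and 5.98%. The difference between both lists was not tested. Of the 6 fast fiber markers, Mybpc2 and Actn3 were called lower in labelled strNrip1-/- muscle in both states, and their part in these values was not tested.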

How the data were processed

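RNA-seq of EDL muscle was analyzed in 12 libraries, 3 in each of 4 groups taken from the sample labels. The library kit keeps no strand. Per the study's methods and the submitters' processing notes, the authors quantified transcripts with Salmon 1.10.2 against mm10, summed them to genes and used DESeq2 1.44.0. The authors deposited FPKM for each gene in each library. How FPKM was computed and from which annotation release are not given in the sources used here. The deposited table also holds log2 fold changes and adjusted p-values of the authors' comparisons, which were not used.

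FPKM is not a count, so limma 3.58.1 (R 4.3.3; lmFit, contrasts.fit and eBayes with trend) was fitted to log2(FPKM + 0.5) of 12744 genes whose mean reached 0.5 FPKM, with 4 group means and two-sided tests. This scale understates changes of low genes. The fit was tested on simulated data. The scale behind the FPKM of each library was estimated from whole-fragment steps of low values in 1613 genes with a single transcript over 1500 nt. Whether it equals the fragments sequenced was not tested. After 330 to 355 nt were taken off each transcript, 98.7% to 99.4% of values lay within 0.1 of a whole number (20% by chance). FPKM of short transcripts therefore rests on an effective length, which bears on ribosomal protein genes. Copies were found with blastn 2.17.0 on GENCODE M21 transcripts (GRCm38), the annotation used for coordinates, lengths and GC content, and FPKM of a gene and its copy were added. The methods do not say that each library is 1 mouse. If it is not, p-values measure only the spread between libraries, which may be technical. No pair of libraries held identical values of the 87 genes.

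Genes were named by a rule: those called, the 3 largest estimates in each direction of a comparison, the 5 highest and lowest levels, the genes next to the minimum and a list by role with its paralogs. Rpl10-ps3, the copies above their gene and the genes of other lists that were called are named beyond it. The genes, lists and rules were chosen with earlier results of these data known. Alternatives changed the pseudocount, filter, scaling, GC and length trends, libraries and call rule. Results of a few genes are not reported here.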

Additional observations from a re-analysis of the deposited data

How the results depend on the processing

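Calls and medians of the 87 genes were recomputed under 24 alternative settings, 2 of them (leaving out the 4 libraries numbered 2, and adding near-identical copies) chosen after seeing the data. For Rps27, Rps27rt and Rpl37 the sum with the near-identical partner, also chosen after seeing the data, gave no call. In 20 settings 0 genes were called in every comparison. Called genes between labelled genotypes numbered 2 in sedentary (Rpl4 and Rpl10, lower) and 2 in trained muscle (Rpl36 and Rpl37, higher) with each library rescaled to the same FPKM sum, 1 in each state (Rpl36) with the same sum outside the mitochondrial genome, and 1 (Rpl10, lower) and 2 (Rpl36 and Rpl38, higher) without the 4 libraries numbered 2. With the same FPKM sum Rpl37 was also called higher with training in labelled strNrip1-/- muscle, 1 gene, where the median of the 87 genes became 0.13 and that of the interaction 0.22. This scaling shifts the median of all genes by −0.14, 0.06, −0.04, 0.16 and 0.20 in the genotype (sedentary, trained), training (labelled WT, labelled strNrip1-/-) and interaction comparisons. The interaction median was 0.19 without the 4 libraries numbered 2. Leaving out 1 library gave 0 to 1 calls in trained muscle, the 1 being Rps4l without labelled strNrip1-/- sedentary replicate 3, and 0 in the other comparisons. Medians then ranged from −0.11 to 0.15 (sedentary), −0.02 to 0.12 (trained), −0.14 to 0.01 and −0.15 to 0.08 (training) and −0.10 to 0.13 (interaction). The paralog ratios passed no test under any alternative. Whether replicate numbers pair the libraries was not settled. Over all genes, deviations from the group means had an r from −0.10 to 0.24 in the 18 same-numbered pairs, over 0.1 in 5. Among libraries numbered 2, r was 0.16, 0.20 and 0.24 between both sedentary groups and the trained WT group. With labelled strNrip1-/- trained replicate 2 it was −0.10, −0.03 and −0.05. Differently numbered pairs ran from −0.25 to 0.20. With the replicate number as a block, 0 of the 87 genes were called in any comparison. Each group holds every number, so this block cannot change the log2 differences or their medians (0.03 in sedentary muscle). With 3 libraries a group, changes under 1.2-fold were not resolved for most genes, and intervals cover the spread between libraries only.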
